A study of Mus musculus with 73 samples.

Results

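The adrenal glands of XX mice lacking Znrf3 in steroidogenic cells were compared with those of XX control mice at 12 weeks of age. The comparison rests on 8 of the 73 RNA-sequencing libraries of the series, 4 from Znrf3 cKO and 4 from control adrenals, chosen by their labelled sex, genotype and age. The series also holds both genotypes in XY mice and at other ages. Each library was made from poly(A) RNA of whole adrenals, cortex and medulla together, with a stranded kit.

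Znrf3 cKO mice (Sf1-Cre;Znrf3 fl/fl) carried LoxP sites around the exons that encode the RING domain of ZNRF3 and the Sf1-Cre-high transgene, in which regulatory regions of Sf1 (the gene Nr5a1) drive the Cre recombinase in steroidogenic cells. Control mice are labelled WT and were littermates. Both genotypes were kept on a C57Bl/6 background, and the mTmG fluorescent reporter was part of the breeding scheme. Whether every library stands for its own mouse is not given in the sources used here, so the spread behind each p-value may in part be technical.

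ZNRF3 is a membrane ubiquitin ligase that removes Frizzled receptors from the cell surface, so that its loss prolongs the response of a cell to WNT ligands. In the adrenal cortex WNT signalling is strongest under the capsule, where the zona glomerulosa makes aldosterone. The zona fasciculata beneath it makes glucocorticoids in response to ACTH. The medulla at the centre of the gland is made of chromaffin cells, which store catecholamines and chromogranins.

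The libraries held 44.4 to 50.9 M recovered reads, apart from Znrf3 cKO replicate 1 with 23.6 M. This library stood apart in other ways. Genes under 200 bases took 30.0% of its summed RPKM (read count scaled to the length of the gene in kilobases and to library size in M reads), against 3.84 to 6.27% in the other 7 libraries, and ribosomal RNA genes took 3.38% of its reads, against at most 0.0582%. Its sum of RPKM was also the highest, so counts below are given without it or after rescaling each library to a common sum where these differ. A second library, labelled control replicate 4, differed from the other controls in Znrf3 and around Nr5a1, as described next. The main counts are given without it too.

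Xist, the silencer of the second X, had 72.1 to 81.7 RPKM in Znrf3 cKO libraries and 62.6 to 83.3 RPKM in control libraries, and the Y-linked Ddx3y was at most 0.0358 RPKM in any of them, as the sex labels require. Markers of hepatocytes, kidney tubule and ovary summed to at most 1.68, 0.0545 and 0.722 RPKM in Znrf3 cKO libraries and to at most 5.61, 0.104 and 0.754 RPKM in controls. Adipocyte markers were present and varied widely, with sums of 951, 397, 604 and 384 RPKM in Znrf3 cKO, against 1548, 165, 545 and 428 RPKM in controls, and 0 of 8 were called (limma, 0 higher and 1 lower at an unadjusted p under 0.05, 0 with voom, which weights recovered reads by their precision). Of 6 exocrine pancreas markers 1 was abundant enough to be tested, Cela1, an elastase gene, at 29.5 to 36.5 RPKM in Znrf3 cKO, against 20.5 to 28.0 RPKM in controls (log2 fold change 0.41, adjusted p = 0.0215). The part of surrounding tissue in the results below was not tested. Steroidogenic genes were among the most abundant, with Cyp11b1, the last enzyme of corticosterone synthesis, at 2990 ± 552 RPKM in Znrf3 cKO and 2750.0 ± 252 RPKM in controls (SD, n = 4 each).

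Znrf3 itself (chr11:5276324-5444847, mm10, minus strand) was at 9.23, 8.185, 8.59 and 8.48 RPKM in Znrf3 cKO replicates 1 to 4, against 3.97, 3.88, 4.43 and 6.54 RPKM in control replicates 1 to 4. Each Znrf3 cKO library was above each control library, and Znrf3 was higher in Znrf3 cKO by 0.78 ± 0.13 on the log2(RPKM + 1) scale (SE, adjusted p = 0.0059, limma on all tested genes with Benjamini-Hochberg adjustment, as for every adjusted p below). Control replicate 4 was the highest control. The deposited value covers the whole gene, so it does not measure the deletion of the RING exons and cannot check the genotype label. The call was lost after rescaling to a common sum (log2 fold change 0.56, adjusted p = 0.078). It held on the common sum without Znrf3 cKO replicate 1 (0.65, adjusted p = 0.034).

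Nr5a1, which encodes the steroidogenic transcription factor SF1, was at 442, 384, 431 and 411 RPKM in Znrf3 cKO, against 188, 159, 122 and 312 RPKM in control libraries. The groups did not overlap, with a log2 fold change of 1.18 ± 0.25 (adjusted p = 0.011), but control replicate 4 was the control nearest to the Znrf3 cKO libraries. Its next gene on chromosome 2, Nr6a1, a germ cell nuclear receptor, was at 6.40, 5.27, 11.2 and 5.61 RPKM in Znrf3 cKO, against 1.085, 0.952, 1.28 and 5.93 RPKM in controls. Control replicate 4 thus had the Nr6a1 level of a Znrf3 cKO library, and the log2 fold change was 1.47 (adjusted p = 0.0323) with it and 1.90 (adjusted p = 0.00407) without it. The call was lost without Znrf3 cKO replicate 1 (adjusted p = 0.0591) and on the common sum (0.0636).

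Control replicate 4 was the highest control in adjoining transcripts too. Nr5a1os, which overlaps Nr5a1 on the other strand, cannot be told apart from it where reads were counted without strand, a setting not given in the sources used here. It was at 6.33, 4.15, 6.38 and 6.43 RPKM in Znrf3 cKO, against 2.49, 1.68, 1.49 and 5.81 RPKM in controls (log2 fold change 0.93, adjusted p = 0.0535). The pseudogene Adgrd2-ps on the other side of Nr5a1 was at 0.751, 0.534, 0.474 and 0.502 RPKM in Znrf3 cKO, against 0.0795, 0.0936, 0.0419 and 0.350 RPKM in controls (0.46, adjusted p = 0.0151). For both, control replicate 4 was the control closest to Znrf3 cKO. The flanking genes did not share this. Psmb7, a proteasome subunit, was at 16.5 to 17.1 RPKM in Znrf3 cKO and 14.6 to 15.3 RPKM in controls, and Olfml2a, an olfactomedin-like gene, at 1.80 to 2.34 RPKM in Znrf3 cKO and 2.19 to 2.66 RPKM in controls. For both, control replicate 4 lay inside the range of the other controls.

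**Figure D1:**
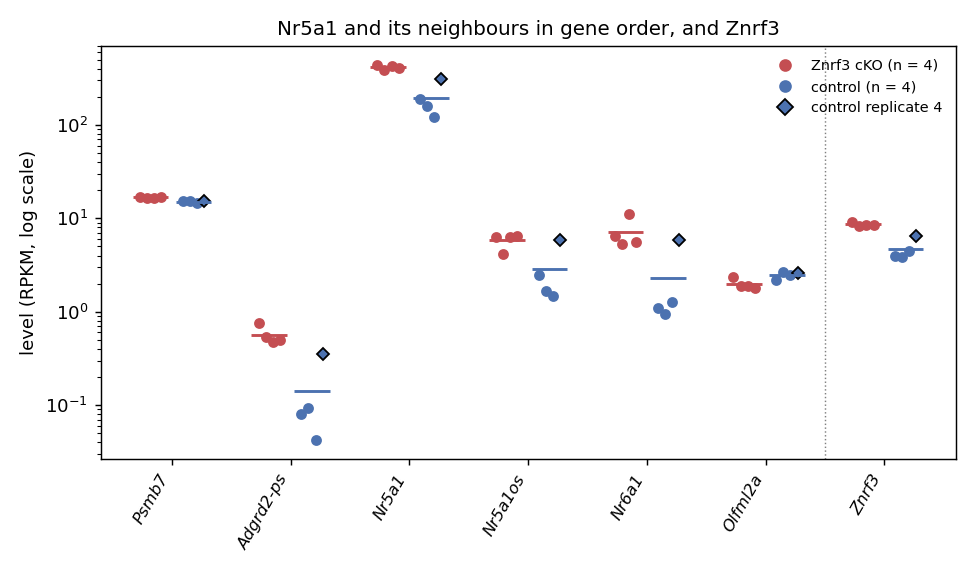
Levels (RPKM, log scale) of Nr5a1 and its neighbours on chromosome 2 in gene order, and of Znrf3 to the right of the dotted line, in each Znrf3 cKO library (left of each pair) and control library (right), with bars at the means. Control replicate 4 (diamond) sits near the Znrf3 cKO libraries for Adgrd2-ps, Nr5a1, Nr5a1os and Nr6a1 and with the other controls for Psmb7 and Olfml2a. For Znrf3, on another chromosome, it lies between the other controls and the Znrf3 cKO libraries at 6.54 RPKM.

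The same region could be set against the other groups of the series. Nr6a1 lay between 4.93 and 11.1 RPKM in Znrf3 cKO XX adrenals at 6 weeks, against 0.918 to 1.29 RPKM in their 4 controls. In XY adrenals at 12 weeks it lay between 4.12 and 10.7 RPKM in Znrf3 cKO, against 8.92 RPKM in 1 of 5 controls and 1.095 to 1.499 RPKM in the other 4. Nr6a1 was thus high in every Znrf3 cKO library of these groups and in 1 control library of each sex at 12 weeks. That XY control also had the highest Znrf3 level of its group, 6.74 RPKM, against 2.97 to 5.03 RPKM in the other 4. The Cre transgene of the Znrf3 cKO mice carries Sf1 regulatory regions. The part of transgene reads in the values of Nr5a1 and its neighbours was not tested. For Chga, Pnmt and the other medullary markers described next, the library labelled control replicate 4 lay above every Znrf3 cKO library. It was the lowest control for Chga (292 RPKM), for Pnmt (47.1 RPKM) and for the summed chromaffin markers (1308 RPKM).

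Of 19035 genes tested, 2964 were higher (15.6%) and 2060 lower (10.8%) in Znrf3 cKO, 26.4% of genes in all (39.6% at an unadjusted p under 0.05, 22.5% higher), and the libraries of the groups did not overlap for 30.6% of genes. Most differences were small: 58 of the higher and 149 of the lower genes differed by at least 1 on the log2 scale. Without Znrf3 cKO replicate 1 the counts were 2237 higher (11.8%) and 1434 lower (7.58%), 19.4% in all, and without control replicate 4 they were 2056 higher and 1493 lower.

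The balance between directions depended on the scale. The median log2 fold change over all tested genes was 0.018 with values as deposited and -0.175 after rescaling to a common sum, which left 154 genes higher (0.802%) and 1313 lower (6.83%), 7.64% in all. Rescaling without Znrf3 cKO replicate 1 gave 1094 higher (5.77%) and 1609 lower (8.49%), 14.3% in all, with a median of -0.07, and rescaling over genes of at least 500 bases gave 1254 higher and 3092 lower with a median of -0.09. Of the 1467 genes called on the common sum, 1360 were also called with values as deposited.

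Of the marker lists with tested members, the chromaffin list had the lowest median. All 13 chromaffin markers fell in Znrf3 cKO, with a median log2 fold change of -1.93 against 0.02 over all tested genes, and 13 of 13 were lower on the common sum and with each library left out in turn. Their summed level was 276.0, 327.5, 483 and 272 RPKM in Znrf3 cKO, against 1517, 2207, 2107 and 1308 RPKM in control libraries. The highest Znrf3 cKO library was far below the lowest control, and the mean in Znrf3 cKO was 0.190 times that of controls. RPKM is relative to the reads of the whole library. In whole glands fewer cells of a type, less of its RNA per cell and more of other cells cannot be told apart. The paper reports heavier adrenals in female Znrf3 cKO mice than in controls at this age. The part of gland size in these falls was not tested.

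**Figure D2:**
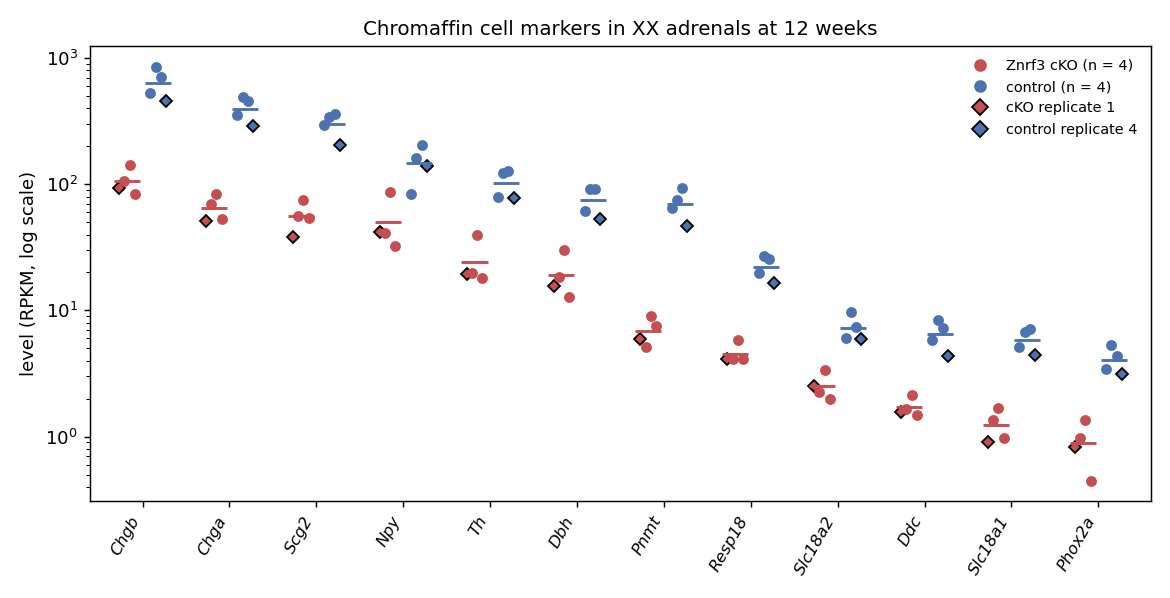
Levels (RPKM, log scale) of 12 of the 13 chromaffin cell markers in each Znrf3 cKO library (left of each pair) and control library (right), with bars at the means and diamonds for Znrf3 cKO replicate 1 and control replicate 4. The groups are separated for every gene shown except Npy, and both diamonds lie with their own group.

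The largest fall was that of Pnmt, the enzyme that turns noradrenaline into adrenaline (chr11:98386450-98388181). It was at 5.96, 5.09, 9.07 and 7.54 RPKM in Znrf3 cKO, against 64.7, 74.6, 92.8 and 47.1 RPKM in controls. The mean in Znrf3 cKO was 0.0991 times that of controls, a log2 fold change of -3.15 ± 0.22 (adjusted p = 0.0011), and no libraries overlapped.

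The enzymes upstream of Pnmt fell less. Th, the rate-limiting enzyme of catecholamine synthesis, was at 19.3, 19.8, 39.8 and 18.1 RPKM in Znrf3 cKO, against 79.8, 124, 128 and 77.6 RPKM in controls, a log2 fold change of -2.07 ± 0.28 (adjusted p = 0.0029). Ddc, which makes dopamine, fell by 1.44 and Dbh, which makes noradrenaline from it, by 1.93 on the log2 scale (adjusted p = 0.0021 and 0.0035). Th and Dbh are expressed in all chromaffin cells and Pnmt in those that make adrenaline. The difference between the fall of Pnmt and that of Th was not tested. Znrf3 cKO replicate 3 had the highest level of all these enzymes in its group.

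The proteins of the secretory granule followed. Chga, which encodes chromogranin A, was at 51.6, 69.3, 83.6 and 53.3 RPKM in Znrf3 cKO, against 357, 492, 456 and 292 RPKM in controls, a log2 fold change of -2.61 ± 0.20 (adjusted p = 0.0015). Chgb and Scg2, the other granins of the list, fell by 2.55 and 2.42 (adjusted p = 0.0016 for both). The vesicular monoamine transporters Slc18a1 and Slc18a2, which load the granules, fell by 1.62 and 1.22. Npy, a peptide that is released with catecholamines, was at 41.5, 41.0, 86.8 and 32.7 RPKM in Znrf3 cKO, against 84.2, 162, 207 and 140.2 RPKM in controls. It fell by 1.57 (adjusted p = 0.013), although the highest Znrf3 cKO library overlapped the lowest control.

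Phox2a, a transcription factor of the sympathoadrenal lineage, fell by 1.42 (adjusted p = 0.0023). The 15 largest falls were taken among called genes whose libraries did not overlap and that averaged 5 RPKM or more where higher. Of these 15 genes, 7 (Pnmt, Chga, Chgb, Scg2, Th, Resp18 and Dbh) are on the chromaffin list. A further 5 are known from neuroendocrine cells: Dlk1, which the chromaffin cells of the medulla express, the neuropeptide gene Gal, the prohormone convertase gene Pcsk1, its inhibitory partner Scg5 and Nap1l5. They fell by 2.26, 2.07, 2.02, 2.00 and 1.94 (adjusted p = 0.00165 to 0.00222).

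Promoters of the chromaffin markers were searched for the cAMP response element (CRE), the palindrome TGACGTCA, which reads the same on both strands and through which CREB acts. Of 10 chromaffin markers with an entry in the RefSeq promoter set (GRCm38.p6, 250 bases before the start), 3 held the motif, against 1.62% of 27025 promoters overall. It stood in 3.11% of the promoters of tested genes that were higher, 2.72% of those lower and 2.57% of those not called. The other matched markers, Resp18, Dbh, Npy, Phox2a, Ddc, Chga and Slc18a2, lacked the motif and were lower too. The last 120 bases before the start of the 3 with the motif are shown 5′ to 3′ on the strand of the gene, because they share this element close to the start. The CRE is in capitals. It lies 68 to 61 bases before the start in Scg2 (chr1:79440027-79440146), 72 to 65 in Chgb (chr2:132781522-132781641) and 45 to 38 in Th (chr7:142899996-142900115).
Scg2: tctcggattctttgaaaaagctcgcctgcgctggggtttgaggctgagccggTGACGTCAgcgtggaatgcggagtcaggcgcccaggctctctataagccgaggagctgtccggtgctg
Chgb: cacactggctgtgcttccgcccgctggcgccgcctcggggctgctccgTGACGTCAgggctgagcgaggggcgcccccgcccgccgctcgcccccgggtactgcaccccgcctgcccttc
Th: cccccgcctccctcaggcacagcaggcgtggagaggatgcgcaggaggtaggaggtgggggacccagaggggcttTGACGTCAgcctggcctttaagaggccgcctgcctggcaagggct
A match describes the letters of the promoter and is no measure of binding. The motif CAAGGTCA, searched on both strands as the site of SF1, stood in 0 of 10 promoters of zona fasciculata genes that had an entry and in 1.31% of all promoters, which says only that these letters are not in those windows.

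The other cells that ensheath or supply the medulla were examined by their markers. Of 5 tested Schwann and sustentacular cell markers, 4 fell, with a median of -0.41, against 10.8% lower among all tested genes. The count was 2 on the common sum (6.83% lower among all tested genes), and 2 without Znrf3 cKO replicate 2 or without control replicate 1. Erbb3, the neuregulin receptor of Schwann cells, was at 0.309, 0.457, 0.386 and 0.310 RPKM in Znrf3 cKO, against 0.766, 1.12, 0.993 and 0.853 RPKM in controls, a fall of 0.50 (adjusted p = 0.0050). Cdh19, a cadherin of the same lineage, fell by 0.51 (adjusted p = 0.0056). Both remained lower after rescaling.

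Among genes of the steroidogenic cortex, 6 of 18 tested zona fasciculata genes were higher and 0 lower, with a median of 0.12, against 15.6% higher and 10.8% lower among all tested genes. The 6 were Nr5a1, Nr0b1, Cyp21a1, Por, Fdxr and Tspo. The part of transgene reads in the values of Nr5a1 was not tested, as stated above. With values rescaled to a common sum, Nr5a1 and Nr0b1 alone remained higher (0.802% of all tested genes were), whereas 6 were higher without Znrf3 cKO replicate 1 on either scale. The summed level of the 19 genes of the list, as deposited, was 24360 to 29230 RPKM in Znrf3 cKO, against 19380 to 22830 RPKM in controls. Znrf3 cKO replicate 1 had 24840 RPKM of a library total of 7.63e+05, against library totals of 4.60e+05 to 4.81e+05 in controls. The separation of that library from the controls thus does not carry over to the common sum.

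Nr0b1 encodes DAX1, a partner of SF1 and its target. It was at 37.5, 38.8, 29.5 and 27.6 RPKM in Znrf3 cKO, against 14.03, 22.2, 17.0 and 13.98 RPKM in controls, higher by 0.96 ± 0.16 (adjusted p = 0.0061). Cyp21a1, the 21-hydroxylase that both mineralocorticoid and glucocorticoid synthesis need, was at 6203, 8164, 6514 and 6875 RPKM in Znrf3 cKO, against 3952, 4849, 4982 and 4615 RPKM in controls. Its log2 fold change was 0.59 (adjusted p = 0.021). The adjusted p was 0.065 without control replicate 4, 0.28 on the common sum and 0.015 on the common sum without Znrf3 cKO replicate 1. Por and Fdxr, which pass electrons to the microsomal and mitochondrial cytochromes P450, were higher by 0.55 and 0.48, and Tspo, a protein of the outer mitochondrial membrane, by 0.40.

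Other steps of the pathway did not pass the test. Star, which brings cholesterol into mitochondria, was at 2049, 2760.0, 1713 and 2573 RPKM in Znrf3 cKO, against 2555, 2609, 2052 and 2406 RPKM in controls (log2 fold change -0.10 ± 0.17, adjusted p = 0.69). Cyp11a1, which cleaves the side chain of cholesterol, averaged 844 ± 116 RPKM in Znrf3 cKO and 892 ± 161 RPKM in controls (adjusted p = 0.75), and Cyp11b1 and the ACTH receptor gene Mc2r differed by 0.11 and -0.06 (adjusted p = 0.65 and 0.62). Akr1b7, an ACTH-responsive gene of the fasciculata, was between 540.4 and 1640.0 RPKM in Znrf3 cKO and between 629.8 and 2023 RPKM in controls, with overlapping groups. Cyp17a1, which adult mouse adrenals lack, was at most 0.1502 RPKM.

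The zona glomerulosa showed the opposite balance. Of 15 tested genes 7 were lower and 1, Wnt4, was higher, with a median of -0.52, against 10.8% lower and 15.6% higher among all tested genes. The summed level of the list overlapped, at 1438 to 1641 RPKM in Znrf3 cKO and 1348 to 1712 RPKM in controls. The 7 kept their call on the common sum (6.83% lower among all tested genes), and 6 were lower without Znrf3 cKO replicate 1 and without control replicate 4. Kcnk9, a potassium channel that holds glomerulosa cells at rest, was at 10.1, 8.09, 12.8 and 11.4 RPKM in Znrf3 cKO, against 24.1, 21.7, 29.5 and 27.9 RPKM in controls, a fall of 1.22 ± 0.14 (adjusted p = 0.0021). Agtr1b, a receptor for angiotensin II, was at 3.51, 3.89, 4.96 and 5.30 RPKM in Znrf3 cKO, against 10.1, 8.80, 11.9 and 11.9 RPKM in controls, a fall of 1.11 (adjusted p = 0.0021). Neither gene overlapped between groups.

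Vsnl1, a calcium sensor of glomerulosa cells, fell by 1.13 (adjusted p = 0.0029) and Cacna1h, the calcium channel of aldosterone secretion, by 0.52 (adjusted p = 0.011). Cyp11b2, the aldosterone synthase that defines the zone, did not follow. It was at 489, 623, 559 and 712 RPKM in Znrf3 cKO, against 563, 619.6, 738 and 650.5 RPKM in controls (log2 fold change -0.12 ± 0.13, adjusted p = 0.55), with overlapping groups. Dab2, an adaptor protein of the outer cortex, was at 55.1 to 84.0 RPKM in Znrf3 cKO and 80.2 to 98.3 RPKM in controls (-0.38, adjusted p = 0.055).

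Agtr2, the second angiotensin receptor, was no member of the list but had the sixth largest fall among the genes named by size. It was at 1.96, 2.38, 2.40 and 2.02 RPKM in Znrf3 cKO, against 19.0, 30.6, 9.02 and 10.1 RPKM in controls, a fall of 2.36 ± 0.33 (adjusted p = 0.0033). The Znrf3 cKO libraries were close together and the controls spread widely. The lack of overlap was part of the rule for naming by size.

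The X-zone, the innermost cortex of young female mice, was followed through Akr1c18, the progesterone-inactivating enzyme that marks it (chr13:4132615-4150654). Akr1c18 was at 159, 294, 109 and 175 RPKM in Znrf3 cKO, against 1572, 1977, 391 and 1348 RPKM in controls. The lowest control lay above the highest Znrf3 cKO library, and the fall was 2.71 ± 0.51 (adjusted p = 0.0079, 0.0016 on the common sum). Pik3c2g, another X-zone gene, was at 4.19, 3.49, 1.25 and 0.644 RPKM in Znrf3 cKO, against 16.0, 30.5, 1.63 and 5.08 RPKM in controls (-1.66, adjusted p = 0.14). Control replicate 3 was the lowest control for Akr1c18 and Pik3c2g. For Thrb, the remaining gene of the X-zone list, the mean in Znrf3 cKO was 0.947 times that of controls, and it was not called. Of the 3 tested genes of the list 1 was thus lower, against 10.8% of all tested genes.

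**Figure D3:**
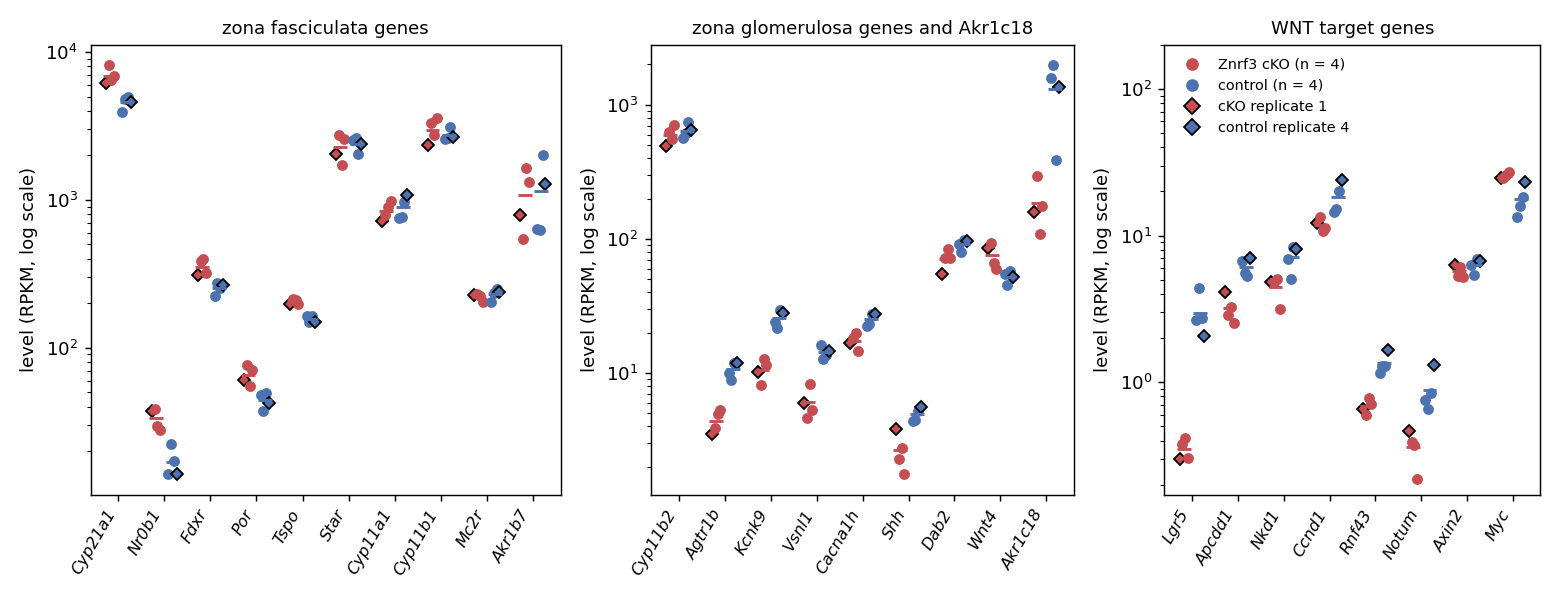
Levels (RPKM, log scale) of zona fasciculata genes, zona glomerulosa genes with the X-zone gene Akr1c18, and WNT target genes, in each Znrf3 cKO library (left of each pair) and control library (right), with bars at the means and diamonds for Znrf3 cKO replicate 1 and control replicate 4. Kcnk9, Agtr1b, Akr1c18 and Lgr5 separate the groups, while Star, Cyp11a1, Cyp11b2 and Axin2 overlap.

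Because ZNRF3 restrains WNT signalling, the feedback and target genes of the pathway were examined next. Of 15 tested, 6 fell and 1, Myc, was higher, with a median of -0.12, against 10.8% lower and 15.6% higher among all tested genes. The tested members had a median length of 4738 bases, and longer genes were more often called lower, as described below. The summed level of the list was 123.9 to 131.2 RPKM in Znrf3 cKO and 112.5 to 145.3 RPKM in controls, with overlap. All 6 remained lower on the common sum and Myc was then not called (adjusted p = 0.37). The counts were 4 lower without Znrf3 cKO replicate 1 and 5 lower without control replicate 4.

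Lgr5, an R-spondin receptor and WNT target, was at 0.299, 0.379, 0.419 and 0.304 RPKM in Znrf3 cKO, against 2.65, 4.42, 2.74 and 2.07 RPKM in controls. The mean in Znrf3 cKO was 0.118 times that of controls, with a log2 fold change of -1.53 ± 0.16 (adjusted p = 0.0017) and no overlap. Apcdd1, which binds WNT ligands, fell by 0.77 (adjusted p = 0.0055). The feedback inhibitors Nkd1 and Notum fell by 0.57 and 0.47, the cyclin gene Ccnd1 by 0.57, and Rnf43, the paralogue of Znrf3 with the same activity, by 0.48 (adjusted p = 0.0057).

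Axin2, the feedback gene most often used to read the pathway, was at 6.29, 5.26, 6.07 and 5.22 RPKM in Znrf3 cKO, against 6.27, 5.40, 6.88 and 6.72 RPKM in controls (log2 fold change -0.12 ± 0.09, adjusted p = 0.32). Lef1, a nuclear mediator and target, was at most 0.730 RPKM in any library (-0.10, adjusted p = 0.47). Both groups overlapped for each gene.

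Of 25 tested WNT ligands, R-spondins, receptors and secreted inhibitors, 1 was higher and 4 were lower, with a median of -0.20. The share lower was near the 10.8% among all tested genes and the share higher below the 15.6%. Wnt4, the main ligand of the adrenal cortex, was at 86.0, 93.7, 65.7 and 59.2 RPKM in Znrf3 cKO, against 54.9, 45.0, 57.8 and 51.6 RPKM in controls, higher by 0.51 (adjusted p = 0.038). The call did not hold without Znrf3 cKO replicate 1 (adjusted p = 0.086), without control replicate 4 (0.082) or on the common sum (0.29). Rspo3, the R-spondin of the capsule, fell by 0.96 (adjusted p = 0.045), the co-receptor gene Lrp6 by 0.44 (adjusted p = 0.012), and the secreted modulators Dkk3 and Sfrp1 by 0.52 and 0.66 (adjusted p = 0.010 and 0.039). Without Znrf3 cKO replicate 1 the count was 2, and Rspo3 and Sfrp1 were not called (adjusted p = 0.072 and 0.066).

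Hedgehog signalling links the same zones: Shh is made by subcapsular cortical cells and read by the capsule through Ptch1 and Gli1. Of 7 tested members 4 were lower, against 10.8% lower among all tested genes. The count was 3 without Znrf3 cKO replicate 1 and 2 without Znrf3 cKO replicate 2 or without control replicate 1. The summed level was 23.7 to 28.6 RPKM in Znrf3 cKO, against 31.7 to 37.8 RPKM in controls. Shh was at 3.85, 2.27, 2.77 and 1.76 RPKM in Znrf3 cKO, against 4.41, 4.44, 5.23 and 5.55 RPKM in controls, a fall of 0.71 (adjusted p = 0.015). The receptor gene Ptch1 fell by 0.55, the decoy receptor gene Hhip by 0.58 and Gli1 by 0.42 (adjusted p = 0.0065, 0.020 and 0.045), and all but Gli1 separated the groups.

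Of 12 capsule and fibroblast markers 5 were lower, with a median of -0.49, against 10.8% lower among all tested genes. This count rested on single libraries. It was 1 without Znrf3 cKO replicate 1, 1 without control replicate 1, 3 or 4, 2 without Znrf3 cKO replicate 2 or 4, and 8 without control replicate 2. The member lower with each library left out was Pdgfra, a receptor of mesenchymal cells, at 3.55, 3.15, 3.50 and 3.72 RPKM in Znrf3 cKO, against 5.87, 5.41, 6.51 and 7.55 RPKM in controls (a fall of 0.71, adjusted p = 0.0028). Lum, a proteoglycan gene, was at 3.36, 3.60, 5.32 and 2.69 RPKM in Znrf3 cKO, against 11.2, 4.199, 11.9 and 11.9 RPKM in controls, where control replicate 2 was far below the others (a fall of 1.12, adjusted p = 0.029).

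The genes with the largest rises belonged to no list. Scube1, which encodes a secreted and membrane-bound glycoprotein, was at 8.999, 15.5, 7.05 and 9.46 RPKM in Znrf3 cKO, against 1.52, 1.89, 1.01 and 1.36 RPKM in controls. The mean was 7.11 times that of controls, a log2 fold change of 2.16 ± 0.21 (adjusted p = 0.0016). Chl1, a neural cell adhesion molecule, was at 6.72, 7.69, 9.23 and 9.86 RPKM in Znrf3 cKO, against 1.74, 1.34, 0.839 and 1.10 RPKM in controls, a log2 fold change of 2.06 ± 0.15 (adjusted p = 0.0011). Without Znrf3 cKO replicate 1 the values for Scube1 and Chl1 were 2.203 and 2.15, and on the common sum 1.98 and 1.89.

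Several of the other strong rises were of metabolic enzymes. Cyp2f2, a xenobiotic cytochrome P450, was at 653, 752, 629.5 and 1168 RPKM in Znrf3 cKO, against 84.3, 133, 254 and 363 RPKM in controls, a log2 fold change of 2.10 ± 0.43 (adjusted p = 0.011). Adh7, an alcohol dehydrogenase, Pipox, a peroxisomal oxidase of pipecolic acid, and Mgst2, a microsomal glutathione transferase, were higher by 1.67, 1.83 and 1.47 (adjusted p = 0.0021, 0.0019 and 0.0029). The crystallin genes Crybb1 and Cryba4, neighbours on chromosome 5, were higher by 1.84 and 1.75, and the apolipoprotein genes Apof and Apoc4 by 1.63 and 1.62. Fscn1, an actin-bundling protein, was higher by 1.57 (adjusted p = 0.0043). The call of Elfn1, also among the 15 largest rises, was lost without Znrf3 cKO replicate 1 (adjusted p = 0.10). That of Apoc4 was lost on the common sum (adjusted p = 0.054) but not on the common sum without Znrf3 cKO replicate 1 (0.015).

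A wide and shallow rise touched the machinery of protein synthesis and respiration, in lists that were chosen after these values were seen. Of 82 tested cytosolic ribosomal protein genes 65 were higher and 0 lower, with a median log2 fold change of 0.37, and limma placed 72 higher and 0 lower at an unadjusted p under 0.05, against 22.5% higher among all tested genes. Of 77 nuclear-encoded subunits of the respiratory chain and ATP synthase 46 were higher, of 77 mitochondrial ribosomal protein genes 45, and of 38 proteasome subunits 18, with 0 lower in each. Among all tested genes 15.6% were called higher and 10.8% lower. Rps26, a ribosomal protein gene, was at 108, 106, 91.3 and 91.9 RPKM in Znrf3 cKO, against 56.0, 59.6, 62.1 and 62.8 RPKM in controls, a log2 fold change of 0.71 ± 0.07 (adjusted p = 0.0018). Ndufc1, a subunit of complex I, was at 52.2, 53.7, 52.3 and 45.6 RPKM in Znrf3 cKO, against 27.4, 22.7, 31.2 and 26.3 RPKM in controls (0.90, adjusted p = 0.0019).

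These counts depended on the scale and on single libraries. On the common sum 2 of 82 cytosolic ribosomal, 2 of 77 respiratory, 0 of 77 mitochondrial ribosomal and 0 of 38 proteasome genes were higher (0.802% of all tested genes were). On the common sum without Znrf3 cKO replicate 1 the counts in the same list order were 37, 31, 16 and 6 (5.77% of all tested genes were higher). With values as deposited, 10 proteasome genes were higher without control replicate 3 or 4. Rps26 was higher by 0.46 (adjusted p = 0.070) and Ndufc1 by 0.66 (adjusted p = 0.029) on the common sum.

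Calls also moved with the length of the gene. Among tested genes with under 500 bases of merged exons 23.9% were higher and 2.11% lower, and among those of 8000 bases or more 3.15% were higher and 25.4% lower, with medians of 0.19 and -0.13 on the log2 scale. Without Znrf3 cKO replicate 1 the same shares were 20.5 and 2.22% in short genes and 2.06 and 16.5% in long genes. The median length was 1662 bases for higher, 5234 for lower and 3044 for uncalled genes. The medians of the ribosomal and respiratory lists, 1776 bases (cytosolic ribosome), 2533 (mitochondrial ribosome), 1756 (respiratory chain) and 2814 (proteasome), lay below that of uncalled genes, and the part of length in their rise was not tested. The medians of the WNT target (4738 bases), Hedgehog (5974), capsule (6101), Schwann (4280) and zona glomerulosa (3976) lists lay above that of uncalled genes. Of genes of 4000 to 8000 bases 14.7% were lower, against 10.8% of all tested genes. The part of length in the falls of these lists was not tested. The chromaffin markers ran from 566 to 5401 bases with a median of 2692, and the part of length in their fall was not tested.

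**Figure D4:**
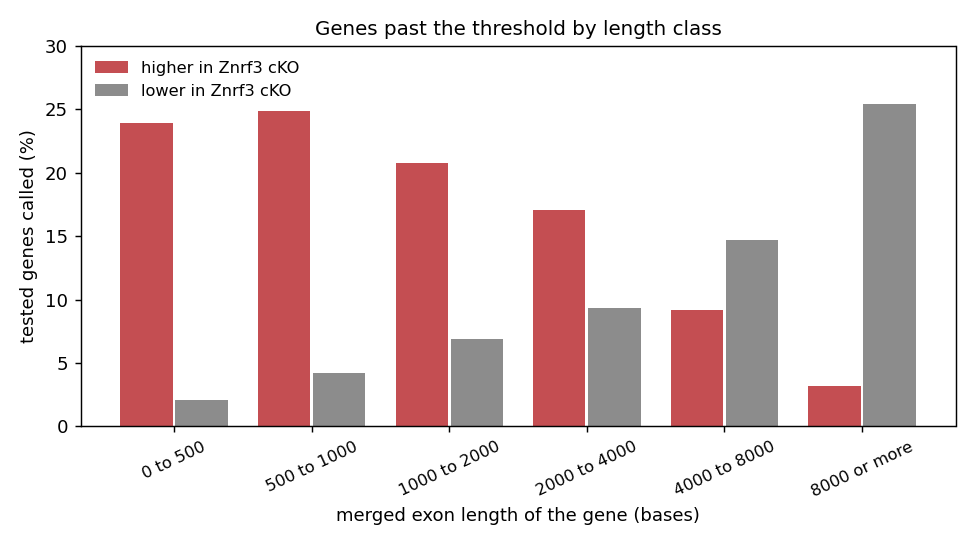
Share of tested genes (%) past the threshold in 6 classes of merged exon length, for genes higher and genes lower in Znrf3 cKO. The share higher runs from 23.9% in the shortest to 3.15% in the longest class and the share lower from 2.11 to 25.4%.

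Immune cells were examined last, with macrophages first because the study follows them in these glands. Of 21 tested macrophage markers 0 were called with limma, 4 were higher at an unadjusted p under 0.05 (22.5% of all tested genes were), and precision weights on recovered reads (voom) also called 0. Leaving out Znrf3 cKO replicate 3 gave 5 higher, and leaving out control replicate 4 gave 1. The summed level was 409, 668, 332 and 522 RPKM in Znrf3 cKO, against 366, 427, 369 and 397 RPKM in controls, with Znrf3 cKO replicate 3 below all controls. Cd68, a lysosomal protein of macrophages, was at 11.2, 18.7, 10.98 and 13.8 RPKM in Znrf3 cKO, against 8.52, 11.1, 9.36 and 11.9 RPKM in controls (0.37 ± 0.17, adjusted p = 0.14). Adgre1, which encodes F4/80, averaged 4.16 ± 1.26 RPKM in Znrf3 cKO and 4.35 ± 0.56 RPKM in controls (adjusted p = 0.76). The complement genes C1qc and C1qa came nearest to the threshold (0.54 and 0.51, adjusted p = 0.065 and 0.069).

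Markers of other immune cells stood out in single libraries. Neutrophil markers summed to 13.9, 15.8, 1.54 and 0.377 RPKM in Znrf3 cKO, against 2.93, 0.695, 0.869 and 0.966 RPKM in controls, so that Znrf3 cKO replicates 1 and 2 stood above the other 6 libraries, and 0 of 4 tested were called (limma, 0 at an unadjusted p under 0.05, 0 with voom). The antigen-presenting MHC class II genes summed to 369, 692, 265 and 394 RPKM in Znrf3 cKO, against 198, 192, 236 and 416 RPKM in controls, with control replicate 4 the highest control. The mean was 1.65 times that of controls with overlapping groups, and 0 of 9 tested were called (limma, 1 higher at an unadjusted p under 0.05, 0 with voom).

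Single genes of phagocytosis and inflammation passed the test. Gas6, the bridging ligand of TAM receptors on phagocytes, was at 228, 309.9, 170.3 and 281 RPKM in Znrf3 cKO, against 86.3, 70.2, 135.5 and 91.3 RPKM in controls, higher by 1.36 ± 0.23 (adjusted p = 0.0061). Pros1, the other such ligand, was higher by 0.26 (adjusted p = 0.0069, 0.96 on the common sum). The TAM receptor gene Mertk was not called (-0.05, adjusted p = 0.73). Over the study's list of phagocytosis signalling 3 of 20 tested genes were higher and 4 lower, with a median of 0.15, against 15.6% higher and 10.8% lower among all tested genes.

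Among cytokine genes on the study's list, 11 of 72 tested were higher and 8 lower, shares near the 15.6% and 10.8% among all tested genes. Mif, a macrophage migration inhibitor, was at 66.5, 73.2, 53.9 and 58.5 RPKM in Znrf3 cKO, against 34.7, 35.3, 33.9 and 35.1 RPKM in controls, higher by 0.83 ± 0.09 (adjusted p = 0.0020). Cxcl14 and Spp1, a chemokine and osteopontin, fell by 1.08 and 1.12 (adjusted p = 0.0064 and 0.0045). Il1a was at most 0.248 RPKM in any library and was not tested. These lists are given in the supplement of the study, which compiled them from published work.

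Of the markers of senescence, Cdkn1a, the cell cycle inhibitor p21, was at 9.96, 6.25, 20.02 and 13.8 RPKM in Znrf3 cKO, against 5.59, 6.32, 8.35 and 15.7 RPKM in controls, with overlapping groups (0.43 ± 0.38, adjusted p = 0.43). Cdkn2a and Glb1, the lysosomal galactosidase, differed by -0.02 and 0.14 (adjusted p = 0.94 and 0.54). Of 79 tested SenMayo genes 6 were higher and 11 lower, and of 32 genes of a senescence-associated secretory list 2 were higher and 2 lower. The shares higher were below the 15.6% among all tested genes, and the shares lower stand against 10.8%. Of 27 genes of the S to M phases of the cell cycle 0 were called (limma, 1 higher and 1 lower at an unadjusted p under 0.05, 0 with voom). Mki67, the Ki67 antigen, was at 1.75, 1.23, 6.29 and 2.23 RPKM in Znrf3 cKO, against 1.62, 1.38, 3.66 and 3.21 RPKM in controls, a spread wider than the difference.

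Whether the effect of the knockout differed from that in XY adrenals of the same age was tested with an interaction term over 17 libraries. The difference passed the threshold for 1113 of 20361 genes (5.47%), 323 with a higher effect in XX (1.59%) and 790 with a lower one (3.88%). At an unadjusted p under 0.05 the share was 19.7%, and on the common sum the counts were 60 and 659. The count with a higher effect in XX was 192 without XX Znrf3 cKO replicate 2, 210 and 179 without XX control replicates 1 and 4, 214 and 158 without XY Znrf3 cKO replicates 2 and 3, and 542 without XY control replicate 5. The count with a lower effect was 504 without XY Znrf3 cKO replicate 3. Gpnmb, a transmembrane protein of phagocytes, was at 0.207, 1.23, 0.0219 and 0.852 RPKM in XX Znrf3 cKO, against 0.169, 0.296, 0.127 and 1.11 RPKM in XX controls. In XY Znrf3 cKO it was at 67.5 to 462 RPKM, against 0.0236 to 2.01 RPKM in XY controls. The difference of effects was -6.81 ± 0.66 on the log2 scale (adjusted p = 8.8e-05).

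Lgals3, Cd68, Trem2, Tyrobp and Mmp12 differed in the same direction, by -3.91, -3.15, -2.79, -2.16 and -4.92 (adjusted p = 0.00038 to 0.0021). For each, the XX groups overlapped and every XY Znrf3 cKO library was above every XY control. Spp1 differed by -3.81: it fell in XX Znrf3 cKO and was higher in XY Znrf3 cKO at 37.5 ± 20.4 RPKM, against 4.37 ± 2.47 RPKM in XY controls.

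**Figure D5:**
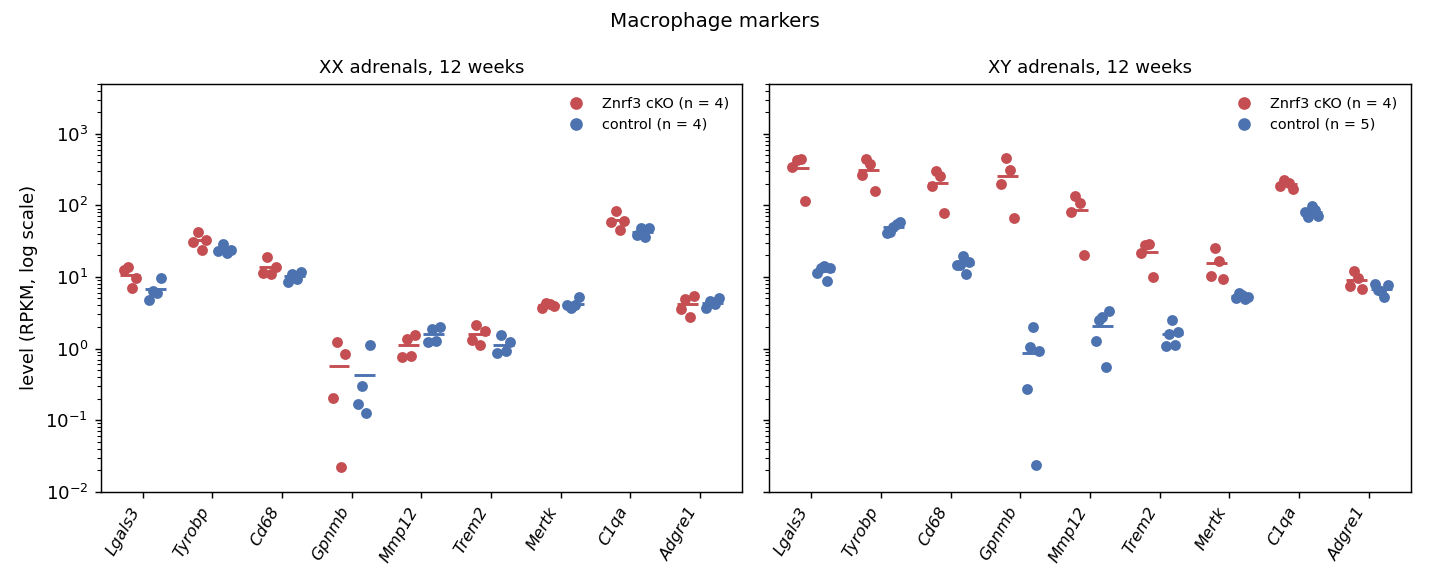
Levels (RPKM, log scale) of 9 macrophage markers in each Znrf3 cKO library (left of each pair) and control library (right) of XX and of XY adrenals at 12 weeks, with bars at the means. Lgals3, Tyrobp, Cd68, Gpnmb, Mmp12 and Trem2 separate the groups in XY and overlap in XX.

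Other genes differed in the opposite direction. Mgst2 was at 36.8, 45.4, 29.1 and 31.3 RPKM in XX Znrf3 cKO, against 13.8, 15.5, 8.20 and 12.0 RPKM in XX controls, and at 1.16 to 5.90 RPKM in XY Znrf3 cKO, against 8.26 to 13.7 RPKM in XY controls, a difference of effects of 3.17 ± 0.39 (adjusted p = 0.00041). Gas6 differed by 1.14 (adjusted p = 0.043), with means of 67.5 ± 18.0 RPKM in XY Znrf3 cKO and 57.1 ± 9.89 RPKM in XY controls. Cyp2f2 also passed (2.28, adjusted p = 0.010). Akr1c18 passed with the sign of Gpnmb (-3.05, adjusted p = 0.038). Both Cyp2f2 and Akr1c18 were at most 4.996 RPKM in every XY library.

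The fall of chromaffin genes was not shown to differ between the sexes. For Chga the difference of effects was -1.54 ± 0.48 (adjusted p = 0.074), for Pnmt -1.77 ± 0.77 (adjusted p = 0.21) and for Th -0.79 ± 0.66 (adjusted p = 0.55). In XY Znrf3 cKO Pnmt was at 25.1 to 95.2 RPKM, against 40.6 to 422 RPKM in XY controls, and overlapped, as did Th and Chga. With limma on the XY libraries alone, the log2 fold changes of Pnmt, Chga and Th were -1.37, -1.07 and -1.28 (adjusted p = 0.23, 0.13 and 0.18). Chgb, Dbh and Resp18 were also negative and not called (-1.39, -1.18 and -0.89). Scg2 was called lower (-1.49, adjusted p = 0.0195). Nr5a1, Cyp21a1 and Lgr5 gave 0.56, 0.70 and -0.67 (adjusted p = 0.43, 0.12 and 0.25).

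The same test against XX adrenals at 6 weeks, over 16 libraries, called 4 of 19853 genes (0.0201%), with 1741 genes (8.77%) at an unadjusted p under 0.05 in limma. With single libraries left out the counts ran from 0 to 3 with a higher and from 0 to 4 with a lower effect at 12 weeks, and both were 0 without Znrf3 cKO replicate 3 of the 6-week group. At 6 weeks 2 of the 4 Znrf3 cKO libraries held 1.02 and 1.25% of their reads in ribosomal RNA genes. Of the 4 called, Steap1, a metalloreductase, was the one that met the rule for naming. It was at 11.1, 10.0, 11.4 and 9.75 RPKM in Znrf3 cKO at 12 weeks, against 15.4, 16.8, 18.1 and 15.9 RPKM in controls, and at 5.80 ± 0.49 RPKM in Znrf3 cKO at 6 weeks, against 18.3 ± 1.94 RPKM in controls, a difference of effects of 0.90 ± 0.11 (adjusted p = 0.012). It was lower in Znrf3 cKO at both ages and less so at 12 weeks. No gene was called on the common sum, where 784 were at an unadjusted p under 0.05.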

How the data were processed

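Whole-adrenal poly(A) RNA was sequenced, and the authors trimmed reads with cutadapt 3.2, aligned them to mm10 with HISAT2 2.2.1, counted them per gene with SummarizeOverlaps and deposited RPKM values (bcl2fastq 2.17.1.14, FastQC 0.11.7 and DESeq2 1.34.0 are also named in the submitters' processing notes). RPKM divides by gene length and by reads per library, so a library rich in very short RNAs has a high sum of RPKM. Of the 54838 genes listed, 16513 were at 0 in the 8 libraries. Depth was recovered from the steps of low values: 98.4 to 98.7% of values under 1000 reads came within 0.02 of a whole read with merged exon lengths, which 54809 genes had. Counting error is smaller than the spread between libraries for abundant genes and limits those near the filter.

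Libraries were grouped by their labels. Genes averaging 0.5 RPKM or more in either group were tested on log2(RPKM + 1) with limma 3.58.1 (R 4.3.3, intensity trend), with Benjamini-Hochberg adjustment at 0.05, and fold changes on this scale understate those of low genes. Effects were compared with XY adrenals at 12 weeks and XX adrenals at 6 weeks by interaction terms. Summed levels of lists are given without a test. The script was tested on simulated data. Genes named by size were the 15 highest and 15 lowest log2 fold changes among called genes that averaged 5 RPKM or more where higher and whose libraries did not overlap, without predicted genes and pseudogenes. Up to 4 members per list and up to 8 genes per interaction were added, with label checks and the neighbours of Nr5a1. Members and lists were chosen with earlier results of these data known. The ribosomal, respiratory and proteasome lists, and further genes given as examples, were chosen after their values were seen. Alternatives were a common sum, other scalings, pseudocounts and filters, precision weights on recovered reads (voom), library weights and leaving out each library. A chromaffin marker that enters the counts and sums of its list is not reported here by itself.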

Additional observations from a re-analysis of the deposited data

Results flagged for a closer look

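Chance alone marks about 1 in 20 groups of 4 by the gap test used here, and 20 of 274 groups (7.30%) were marked. In these a single library lay far from the other 3 of its group.

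Among genes described above, Znrf3 cKO replicate 3 stood above its group for Npy (86.82 RPKM), Th (39.76 RPKM) and Resp18 (5.821 RPKM), and was apart for Hhip at 0.7045 RPKM. Znrf3 cKO replicate 4 was apart for Car8 (5.36 RPKM), Lrp6 (10.15 RPKM) and Nkd1 (3.163 RPKM), and Znrf3 cKO replicate 2 for Apof (59.81 RPKM) and Nr5a1os (4.147 RPKM). Control replicate 4 was apart for Nr6a1 (5.93 RPKM), Adgrd2-ps (0.3499 RPKM) and Xist (62.64 RPKM), and control replicate 2 for Lum (4.199 RPKM).

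Of the library measures, Znrf3 cKO replicate 1 was apart in the share of summed RPKM in genes under 200 bases (30.01%), the share of reads in ribosomal RNA genes (3.383%), the small nuclear RNA Rn7sk (1940.0 RPKM) and Lars2, a mitochondrial leucyl-tRNA synthetase (1485 RPKM). Control replicate 2 was apart for Lars2 at 128.1 RPKM, control replicate 3 for its depth of 44.38 M reads and control replicate 1 for the summed zona fasciculata genes at 19380.0 RPKM.

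The effect of the knockout differed between XX and XY adrenals at 12 weeks, by the interaction test, for 15 named genes. On the log2 scale, XX minus XY, the difference was -6.806 for Gpnmb, -5.047 for Atp6v0d2, a proton pump subunit, -4.919 for Mmp12, -4.392 for Cd5l, a macrophage scavenger protein, -3.906 for Lgals3, -3.812 for Spp1 and -3.454 for Fabp5, a fatty acid carrier. It was -3.154 for Cd68, -2.792 for Trem2, -2.164 for Tyrobp, -1.326 for Mertk and -3.050 for Akr1c18. It was positive for Mgst2 (3.172), Cyp2f2 (2.281) and Gas6 (1.143). Between 12 and 6 weeks in XX adrenals it was 0.902 for Steap1.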

How the results depend on the processing

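Against 2964 higher and 2060 lower genes, rescaling to a common sum gave 154 and 1313, the same without Znrf3 cKO replicate 1 gave 1094 higher, rescaling over longer genes gave 1254 and 3092, and a minimum log2 change of 1 left 58 and 149. For the difference between sexes (323 higher, 790 lower), no filter gave 208 higher, the common sum 60 higher, and the common sum without Znrf3 cKO replicate 1 gave 162 and 503. With single libraries left out these ran from 158 to 542 and from 504 to 1026. For the difference between ages (2 and 2), a pseudocount of 0.1 gave 1 and 0, the common sum 0 and 0 and no filter 1 lower, and single libraries gave 0 to 3 and 0 to 4. On the common sum the zona fasciculata list had 2 higher, Schwann markers 2 lower, cytosolic ribosome 2, respiratory chain 2, mitochondrial ribosome 0 and proteasome 0 higher. Without Znrf3 cKO replicate 1 on that scale the cytosolic ribosome had 37, mitochondrial ribosome 16, proteasome 6 and capsule 2. Over longer genes the mitochondrial ribosome had 19 and the proteasome 6, and without a filter the capsule had 2. With single libraries left out, hedgehog gave 2 to 4, capsule 1 to 8, Schwann 2 to 4, macrophage 0 to 5 and proteasome 10 to 20. The cause was not tested.

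For 119 genes named in the text, 2019 alternative values were computed: 1849 kept their side of the threshold, 158 lost the call, 12 gained it and 0 changed sign after a call. No paired analysis was possible because the labels give no replicate numbers shared between groups. The lower depth of Znrf3 cKO replicate 1 limits genes near the filter.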

Other observations

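Some single genes not described above were named after their values were seen. Sod1, the cytosolic superoxide dismutase, was at 158, 171, 143 and 145 RPKM in Znrf3 cKO, against 96.0, 94.4, 93.5 and 92.8 RPKM in controls, a log2 fold change of 0.70 ± 0.07 (adjusted p = 0.0017, limma), which was not called on the common sum (adjusted p = 0.089). P2ry14, a receptor for nucleotide sugars, was at 0.597, 0.557, 0.698 and 0.650 RPKM in Znrf3 cKO, against 1.29, 1.47, 1.19 and 0.975 RPKM in controls, a fall of 0.45 (adjusted p = 0.0069, 0.015 on the common sum, limma). C3, the central complement component, was at 555, 1003, 618 and 1096 RPKM in Znrf3 cKO, against 407, 170, 597 and 318 RPKM in controls. The groups overlapped, and the call (log2 fold change 1.21 ± 0.39, adjusted p = 0.049, limma) held with only 1 of the 8 libraries left out, control replicate 3, and was lost on the common sum (adjusted p = 0.14).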
